A study of Mus musculus with 24 samples.

Results

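Fos, Fosb, Junb, Egr1, Egr2, Egr3, Egr4, Nr4a1, Nr4a3 and Npas4 are immediate early transcription factors, genes that neurons transcribe within minutes of synaptic input. They were taken by mouse gene symbol from a table of read counts that holds 56750 entries, and all 10 were found, each with 1 entry. RNA from the medial prefrontal cortex was sequenced in 24 libraries, in 6 groups of 4, all under the genotype label 5xFAD. This line models amyloid deposition of Alzheimer's disease and carries a mutated human APP transgene, driven by the neuronal Thy1 promoter. The groups were socially isolated and GH mice given an enriched environment (SI_EE, GH_EE), isolated and GH mice with the treatment label WT (SI_WT, GH_WT), isolated mice with no other treatment (SI_Con) and control mice (GH_Con). The labels do not spell out GH, do not say what WT stands for beside the 5xFAD genotype label, and give no age, so these arms keep their label names. The human APP entry of the table was read in all 24 libraries, at 383 to 4573 counts scaled to library size (CPM), the WT arm included. This range was not split by arm, so it does not show whether the WT arm carries the transgene. Whether every library stems from a separate mouse is not stated by the labels, so p-values measure only the spread between these samples, which may be technical.

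The 10 genes belong to a programme that needs no new protein to start. Calcium entry and neurotrophin or other growth factor signals activate kinases that phosphorylate CREB and the SRF cofactors of the ternary complex factor family, which are already bound at the promoters, and transcription follows at once. Fos, FosB and JunB are subunits of AP-1, in which a Fos protein pairs with a Jun protein. Egr1 to Egr4 are zinc-finger factors that bind GC-rich sites, Nr4a1 and Nr4a3 are orphan nuclear receptors, and Npas4 is a basic helix-loop-helix PAS factor that responds selectively to calcium influx in neurons. Their RNAs decay quickly, so that their level in cortex is widely used as a readout of recent neuronal activity, including that evoked by handling and by new surroundings.

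Promoter sequence is shown for a gene of each of the signals described below: Fos and Nr4a1, which varied together across libraries, Egr2, which had the largest fold between groups, and Egr4, an Egr gene with small differences. RefSeq windows (assembly GRCm38.p6) were found for 8 of the 10 genes, and the 250 bases before the start were searched on both strands. Capitals mark TGACG or its reverse complement CGTCA, the core of the cAMP response element that CREB binds, and in addition the CArG box, which SRF binds, in Egr2 and TATAAA in Fos. The windows are chr12:85473640-85473889 on the plus strand for Fos, chr10:67537619-67537868 on the plus strand for Egr2, chr15:101266596-101266845 on the plus strand for Nr4a1 and chr6:85513590-85513839 on the minus strand for Egr4. Each is read 5′ to 3′ towards the RefSeq start. For Egr2 and Nr4a1 this start, and the window before it, lie inside the gene span given below.
Fos: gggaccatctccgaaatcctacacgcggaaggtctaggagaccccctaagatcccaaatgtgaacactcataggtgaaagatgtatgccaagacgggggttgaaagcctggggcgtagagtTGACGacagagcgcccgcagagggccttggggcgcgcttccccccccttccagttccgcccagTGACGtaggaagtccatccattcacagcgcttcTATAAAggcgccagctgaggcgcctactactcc
Egr2: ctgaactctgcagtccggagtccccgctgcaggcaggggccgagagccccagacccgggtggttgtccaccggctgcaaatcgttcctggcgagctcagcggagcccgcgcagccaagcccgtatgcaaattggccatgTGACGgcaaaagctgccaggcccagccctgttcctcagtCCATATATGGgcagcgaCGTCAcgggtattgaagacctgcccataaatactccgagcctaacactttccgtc
Nr4a1: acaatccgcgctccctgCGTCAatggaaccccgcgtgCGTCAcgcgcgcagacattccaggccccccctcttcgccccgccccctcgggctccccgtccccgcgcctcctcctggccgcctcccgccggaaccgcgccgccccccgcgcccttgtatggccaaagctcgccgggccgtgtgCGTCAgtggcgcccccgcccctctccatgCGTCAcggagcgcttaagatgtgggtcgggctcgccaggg
Egr4: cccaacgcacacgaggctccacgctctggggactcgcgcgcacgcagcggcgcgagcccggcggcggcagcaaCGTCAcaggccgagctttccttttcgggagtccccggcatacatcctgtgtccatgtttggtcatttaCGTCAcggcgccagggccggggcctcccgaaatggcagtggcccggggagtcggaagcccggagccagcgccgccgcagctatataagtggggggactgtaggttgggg
TGACG was present in the windows of 8 of 8 genes searched, against 17.8% of 32851 windows of the same length before the start of all RefSeq genes. Nr4a1 and Nr4a3 held it 4 times each. Fos, Egr2, Egr4 and Npas4 held it 2 times each, and Fosb and Junb held it 1 time each. Of the bases searched, all 250 in Npas4, 152 in Nr4a3 and 6 in Fosb lie in annotated exons. The 2 copies in Npas4 and the Nr4a3 copy 147 bases before the start are therefore in exon sequence. The copies nearest to the RefSeq start lay 66 bases before it in Fos, 55 in Egr2, 40 in Nr4a1 and 109 in Egr4. The whole palindrome TGACGTCA was in 0 of 8 windows, against 1.55% of all windows, and the CArG box was in 1 of 8, 72 bases before the start of Egr2, against 1.47%. TATAAA was in 1 of 8 windows, that of Fos, against 12.4% of all windows. The sites that the members' own proteins bind, TGANTCA for AP-1 and GCGTGGGCG for Egr proteins, were in 0 of 8 windows, against 6.75% and 0.536% of all windows. A match of letters is a description of the window and no measure of binding. Sites farther from the start than 250 bases were not searched, and Egr1 and Egr3 had no window.

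Library totals ran from 33683587 reads in SI_WT 4 to 51274917 in SI_WT 1, and the 10 genes took 0.0862% of all reads. Forebrain pyramidal markers (12 of 12 read in every library) averaged between 6.96 and 7.53 log2 CPM in 23 libraries and 5.50 in SI_EE 1. That library held cerebellar transcripts: the 8 cerebellar markers summed to 4696 CPM there, against 204 to 320 CPM in the others. Markers of thalamus and habenula summed to 501 CPM in SI_EE 1, 208 CPM in GH_WT 2 and 339 CPM in GH_WT 4, against at most 80.7 CPM elsewhere. In GH_Con 2, SI_Con 2 and SI_Con 3, as in SI_WT 4, long transcripts were at lower levels than in the rest. Xist was read in 3 libraries of GH_Con, 1 of SI_EE and 2 of each other group. Values without some of these libraries are given beside members' counts and medians, though not for every comparison. In bulk tissue, fewer cells of a type and less RNA per cell cannot be told apart.

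The reads behind each value were many: the lowest count of any member in any library was 51 reads, for Egr2 in GH_Con 1, and the highest 19952 reads, for Egr1 in SI_WT 1. Levels below are CPM on library totals scaled by trimmed means (TMM), and the order of the genes is given per kilobase of exon. Egr1 (chromosome 18, 34859823 to 34864984, plus strand) stood highest at 81.4 CPM per kb over the 24 libraries. It was followed by Egr3 (chromosome 14, 70077203 to 70082614, plus strand) at 51.6, Nr4a1 (chromosome 15, 101254269 to 101274795, plus strand) at 28.7, Junb (chromosome 8, 84974484 to 84978718, minus strand) at 24.7 and Fos (chromosome 12, 85473890 to 85477273, plus strand) at 11.8 CPM per kb. The lower part of the order was Egr4 (chromosome 6, 85511121 to 85513589, minus strand) at 8.92, Nr4a3 (chromosome 4, 48045153 to 48086447, plus strand) at 4.30, Npas4 (chromosome 19, 4984355 to 4990316, minus strand) at 3.73, Fosb (chromosome 7, 19302696 to 19310051, minus strand) at 2.50 and Egr2 (chromosome 10, 67535475 to 67542188, plus strand) at 2.43 CPM per kb. Positions are those of GENCODE M21 on GRCm38. Egr1 lay above Egr3, and Egr4 above Nr4a3, in 24 of 24 libraries, and Egr3 above Nr4a1 in 23. Neighbours at the bottom were not separated: Nr4a3 lay above Npas4 in 16 libraries and Fosb above Egr2 in 13 of 24. Junb overlaps 351 bases of Prdx2 on the other strand, a peroxiredoxin gene at 136 CPM, and the use of strand in counting is not given in the sources used here, so that Junb values may include reads of Prdx2.

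The genes differed in how far apart the libraries lay. Egr2, at the lowest level, had the widest range, 12-fold between the highest library (GH_WT 2, 16.7 CPM) and the lowest (GH_Con 1, 1.39 CPM). Nr4a3 ranged 7.93-fold, Egr3 7.36-fold and Fos 7.28-fold, and Junb ranged 2.74-fold. GH_Con 1 was the lowest library for Fos, Junb, Egr2 and Nr4a1, and SI_EE 1 for Fosb, Egr1, Egr3 and Egr4. GH_WT 2 was the highest library for Fos, Egr2 and Nr4a3, and SI_WT 2 for Egr1 and Nr4a1. The members' median biological coefficient of variation was 0.328, against 0.243 over all genes tested.

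**Figure D1:**
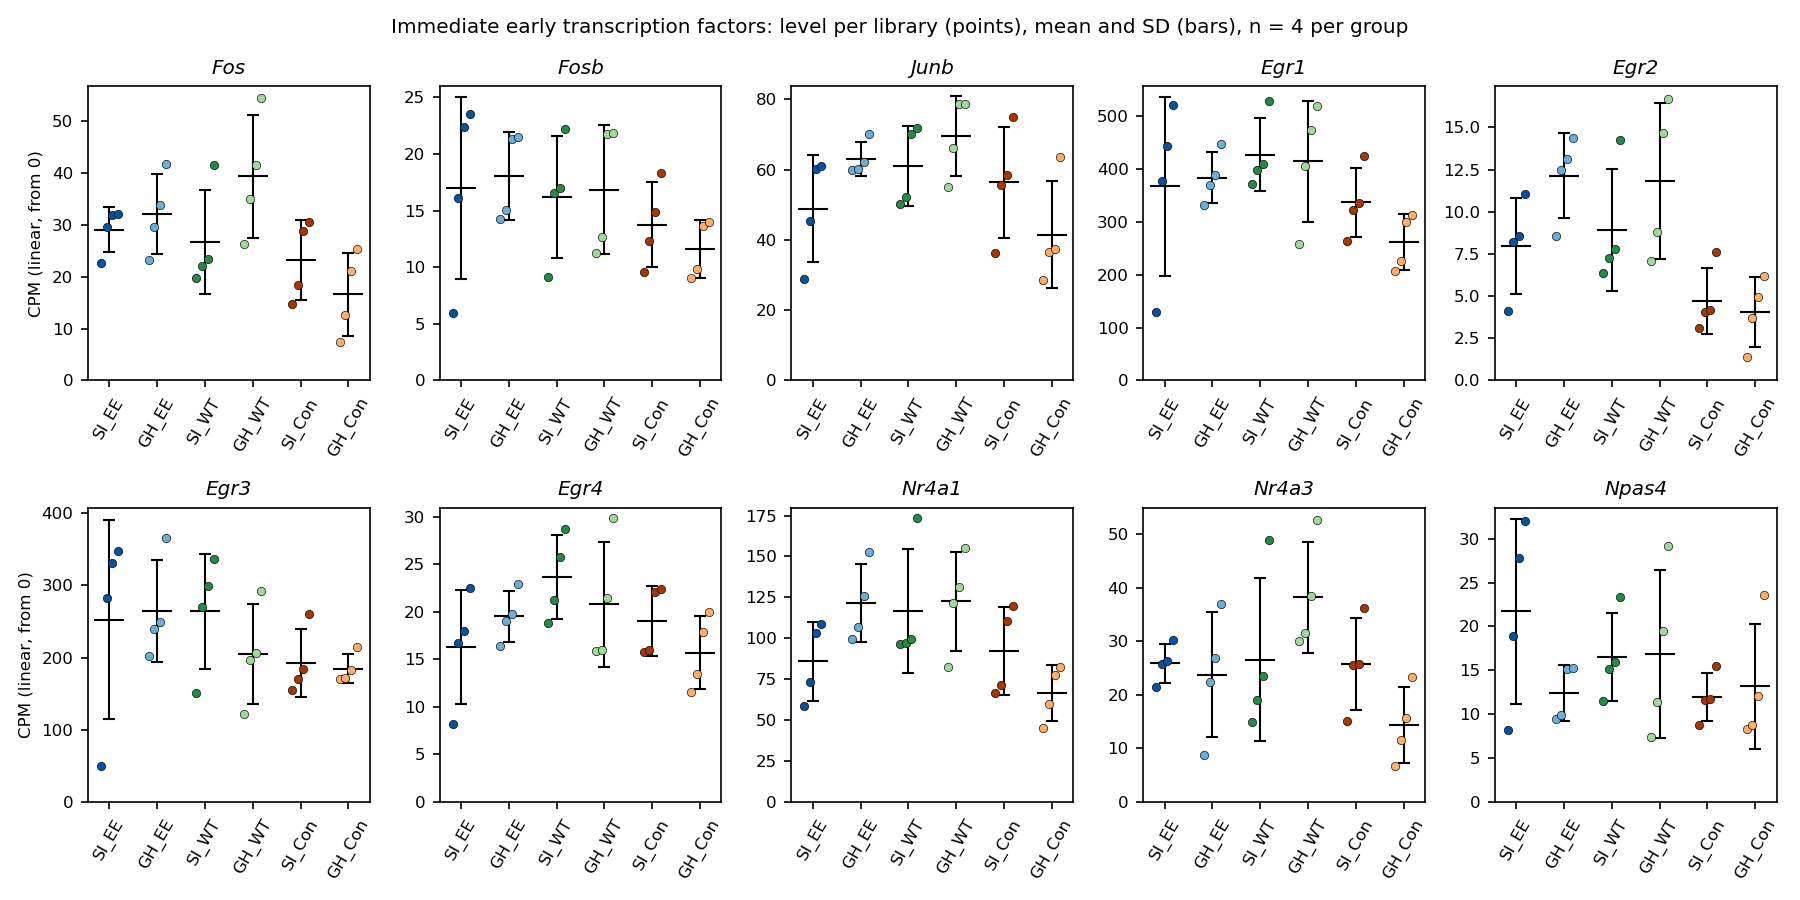
Level of the 10 genes in CPM on linear axes that start at 0, 1 point per library, with the group mean and SD as bars (n = 4 per group, groups along the horizontal axis). GH_Con holds the lowest group mean for 9 of the 10 genes, all but Npas4; for Egr2 it averaged 4.06 CPM, against 12.1 CPM in GH_EE. The low SI_EE point for Egr3 (49.7 CPM) is SI_EE 1.

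Enrichment in GH mice was examined by setting GH_EE against GH_Con. For Egr2 the GH_EE libraries were at 14.4, 12.5, 8.55 and 13.1 CPM, and the GH_Con libraries at 1.39, 4.95, 3.69 and 6.20 CPM. Every GH_EE library lay above every GH_Con library, with a mean of 12.1 ± 2.52 CPM in GH_EE and 4.06 ± 2.05 CPM in GH_Con (SD, n = 4 each). The log2 fold change was 1.58 (SE 0.40, 95% interval 0.75 to 2.41), the largest of the 10 genes, and did not pass the threshold of 0.05 in edgeR's quasi-likelihood test after Benjamini-Hochberg adjustment over 20354 genes (adjusted p = 0.470). DESeq2, run as an alternative, did call it (log2 fold change 1.59, adjusted p = 0.0378). Over all 15 alternatives its log2 fold change ran from 1.30, without GH_Con 1, to 1.86, and its adjusted p from 0.0378 to 1.0. Egr2 is known for its part in Schwann cell myelination and is induced in cortical neurons by strong activity.

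Of the AP-1 subunits, Fos was at 41.7, 33.9, 29.5 and 23.3 CPM in GH_EE, and at 7.48, 25.3, 12.6 and 21 CPM in GH_Con. The groups overlapped between GH_EE 4 and GH_Con 2, and the log2 fold change was 0.95 (SE 0.33, adjusted p = 0.575 in edgeR). Junb averaged 63.1 ± 4.77 CPM in GH_EE and 41.5 ± 15.2 CPM in GH_Con, where only GH_Con 2 (63.5 CPM) reached the GH_EE range. Fosb, which is translated to FosB and, from a spliced transcript, to the long-lived ΔFosB, averaged 18 ± 3.90 CPM in GH_EE and 11.6 ± 2.56 CPM in GH_Con without overlap. The count table does not separate its transcripts.

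Of the nuclear receptors, Nr4a1 was at 153, 126, 107 and 99.7 CPM in GH_EE, and at 45.2, 82.6, 60.1 and 77.6 CPM in GH_Con. All GH_EE libraries lay above all GH_Con libraries, and the log2 fold change was 0.87 (SE 0.26, 95% interval 0.33 to 1.41, adjusted p = 0.537 in edgeR). Nr4a3 averaged 23.8 ± 11.7 CPM in GH_EE and 14.3 ± 7.08 CPM in GH_Con, and the groups overlapped. Its spread in GH_EE came with 1 low library, GH_EE 4 at 8.81 CPM.

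The remaining Egr genes showed smaller differences between GH_EE and GH_Con. Egr1, whose protein is a common marker of active neurons, averaged 384 ± 48.0 CPM in GH_EE and 261 ± 53.0 CPM in GH_Con with no overlap (log2 fold change 0.55, SE 0.28). Egr3 averaged 264 ± 70.8 CPM in GH_EE and 185 ± 20.5 CPM in GH_Con, and Egr4 19.5 ± 2.67 CPM in GH_EE and 15.7 ± 3.87 CPM in GH_Con, each with overlap. Npas4 was at 15.1, 15.2, 9.88 and 9.49 CPM in GH_EE, and at 8.78, 12.1, 8.30 and 23.6 CPM in GH_Con. It was the 1 gene of the 10 with a mean below that of GH_Con (log2 fold change −0.09, SE 0.41).

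Over the 10 genes, 9 had a log2 fold change above 0 in GH_EE against GH_Con, where 46.4% of all genes tested did, with a median of 0.62 against −0.02 over all genes. The members varied together between libraries of the same group (median Pearson's r of 0.57 over 45 pairs, given below). Counts of members, here and in the comparisons that follow, are therefore not counts of independent observations. edgeR called 0 members, against 0.00491% of all genes (1 gene), and DESeq2 called 1. At an unadjusted p under 0.05, Fos, Junb, Egr2 and Nr4a1 (4 of 10) lay higher in GH_EE, against 2.62% of all genes tested, and 0 lower, against 3.7%. The 4 genes without overlap between the groups were Fosb, Egr1, Egr2 and Nr4a1, against 4.5% of all genes higher without overlap, and 0 members were lower without overlap, against 4.06%. GH_Con 1 weighed on these values: without it the members' median log2 fold change was 0.51. The median was 0.53 with Xist as a covariate and 0.69 without the 4 libraries of lower long transcripts. Markers of other cells moved in the same comparison, with 5 of 5 blood genes lower (summed to 0.721 to 12.6 CPM in GH_EE and 3.86 to 188 CPM in GH_Con) and 8 of 8 oligodendrocyte genes lower (3459 to 4659 CPM in GH_EE and 4152 to 5596 CPM in GH_Con). The part of these in the members' values was not tested. Pyramidal markers averaged 7.38 to 7.41 log2 CPM in GH_EE and 7.22 to 7.44 in GH_Con.

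In isolated mice, SI_EE was set against SI_Con, and the members differed less. Egr2 was at 4.11, 11, 8.20 and 8.55 CPM in SI_EE, and at 3.13, 4.17, 4.03 and 7.59 CPM in SI_Con, with 3 of the 4 SI_EE libraries above all of SI_Con. The log2 fold change was 0.75 (SE 0.39, adjusted p = 0.443 in edgeR). Npas4 was at 8.19, 32.0, 18.9 and 27.8 CPM in SI_EE, and at 11.8, 15.5, 11.6 and 8.82 CPM in SI_Con. SI_EE 1 lay at the bottom and the other SI_EE libraries lay above every SI_Con library, with a log2 fold change of 0.86 (SE 0.41, unadjusted p = 0.0495, adjusted p = 0.397 in edgeR). In this comparison 7 of 10 members had a log2 fold change above 0 (50.7% of all genes), the median was 0.22, and 1 (Npas4) was higher at an unadjusted p under 0.05, against 7.03% of all genes, while 0 were lower, against 5.56%. Members without overlap numbered 0, against 2.24% of all genes higher and 2.4% lower. edgeR called 0 members, against 0.0% of all genes, and DESeq2 called 0 members.

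SI_EE 1, with its cerebellar transcripts, decided much of this. Its Egr1 (129 CPM) and Egr3 (49.7 CPM) were the lowest of the 24 libraries, while the other SI_EE libraries were at 520, 442 and 376 CPM for Egr1 and at 331, 348 and 283 CPM for Egr3. SI_Con was at 322, 264, 336 and 424 CPM for Egr1 and at 184, 171, 155 and 261 CPM for Egr3. Without SI_EE 1, the log2 fold change between SI_EE and SI_Con was 1.15 for Npas4 (SE 0.40), 0.98 for Egr2 (SE 0.40), 0.74 for Egr3 (SE 0.26) and 0.60 for Fosb (SE 0.29), and 9 of 10 members were above 0, with a median of 0.37. edgeR called 0 of the 10 without that library too. Leaving out SI_Con 2 and SI_Con 3 with the other libraries of lower long transcripts, 6 of 10 members were above 0, with a median of 0.09. In this comparison, 8 of 8 cerebellar genes (203.9 to 4696 CPM in SI_EE and 215 to 284 CPM in SI_Con) and 5 of 5 blood genes (1.94 to 47.7 CPM in SI_EE and 2.41 to 10.5 CPM in SI_Con) were higher in SI_EE, while 11 of 12 pyramidal genes were lower (median −0.31), and their part was not tested. Fos did not share the low values of SI_EE 1, at 29.5 CPM within a range of 22.7 to 32.1 CPM in SI_EE. Nr4a3 was lowest of its group in SI_EE 1 but by less, at 21.4 CPM within a range of 21.4 to 30.3 CPM.

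Averaged over both housings, EE against Con gave a log2 fold change above 0 for 10 of 10 genes, against 48.7% of all genes, with a median of 0.39. With Xist as a covariate it was 9 of 10 (median 0.35), and without SI_EE 1 it was 10 of 10 (median 0.51). Egr2 led with 10.1 ± 3.35 CPM in the 8 EE libraries and 4.39 ± 1.89 CPM in the 8 Con libraries (log2 fold change 1.17, SE 0.28, 95% interval 0.59 to 1.75). Its adjusted p was 0.208 in edgeR and 0.0161 in DESeq2, and ran from 0.0161 to 0.646 over 23 alternatives. Fos was at 0.64 (SE 0.23) and Nr4a1 at 0.38 (SE 0.18) on the log2 scale. These 3 genes were higher at an unadjusted p under 0.05, against 5.63% of all genes, and 0 were lower, against 5.87%. Overlap was absent for 0 members, against 0.0688% of all genes higher and 0.0786% lower. edgeR called 0 of the 10 genes, against 0.0% of all genes, and DESeq2 called 1. Without SI_EE 1 the log2 fold change was 1.28 for Egr2, 0.63 for Egr3, 0.62 for Fosb and 0.49 for Egr1, where with it those of Egr3, Fosb and Egr1 were 0.45, 0.47 and 0.34. Egr4 had the smallest value with all libraries, 0.05 (SE 0.18). With EE, 10 of 12 pyramidal genes were lower (median −0.12) and 8 of 8 cerebellar genes higher (median 3.34), and their part was not tested.

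Whether the difference with EE was itself different between housings was tested as an interaction (the SI difference minus the GH difference). It was below 0 for 9 of 10 genes, where 51.6% of all genes were above 0, with a median of −0.58. Nr4a1 had the largest value, −0.97 (SE 0.36, unadjusted p = 0.0144, adjusted p = 0.546 in edgeR), and Junb was at −0.81 (SE 0.34, unadjusted p = 0.0280). These were the 2 members lower at an unadjusted p under 0.05, against 2.58% of all genes, and 0 were higher, against 5.16%. edgeR called 0 members, against 0.0% of all genes, as did DESeq2. For Npas4 it was 0.95 (SE 0.58), and without SI_EE 1 it was 1.23 (SE 0.54). Nr4a1 averaged 85.8 ± 23.8 CPM in SI_EE, 121 ± 23.8 CPM in GH_EE, 92.0 ± 26.8 CPM in SI_Con and 66.4 ± 17.1 CPM in GH_Con. Without SI_EE 1 its interaction was −0.82 (SE 0.37), and the median over the 10 genes was −0.46, with 2 above 0. That median was −0.43 without GH_Con 1 and −0.72 without the 4 libraries of lower long transcripts. With all libraries, 12 of 12 pyramidal genes were below 0 too (median −0.46). Above 0 were 8 of 8 oligodendrocyte, 8 of 8 cerebellar and 5 of 5 blood genes (medians 0.41, 6.71 and 4.75). The part of these markers in the members' interactions was not tested. The interaction uses the same GH_Con libraries as the comparison of GH_EE with GH_Con.

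In the WT arm of GH mice, all 10 genes had a log2 fold change above 0 against GH_Con, with 48.6% of all genes above 0 and a median of 0.71 over the members. Because GH_Con is also the control of GH_EE and of SI_Con, its low libraries enter all 3 comparisons. Fos was at 41.6, 54.4, 35.0 and 26.3 CPM in GH_WT, and at 7.48, 25.3, 12.6 and 21 CPM in GH_Con, with no overlap (log2 fold change 1.25, SE 0.33, 95% interval 0.57 to 1.93). Nr4a3 was at 38.4, 52.7, 31.6 and 30.1 CPM in GH_WT, and at 15.7, 6.65, 11.6 and 23.4 CPM in GH_Con, also without overlap (log2 fold change 1.41, SE 0.41). Egr2 averaged 11.8 ± 4.60 CPM in GH_WT and 4.06 ± 2.05 CPM in GH_Con, again with no overlap (log2 fold change 1.54, SE 0.40). The adjusted p of each of these 3 genes was 1.0 in edgeR.

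Nr4a1 averaged 123 ± 30.3 CPM in GH_WT and 66.4 ± 17.1 CPM in GH_Con, Junb 69.7 ± 11.4 CPM in GH_WT and 41.5 ± 15.2 CPM in GH_Con, and Egr1 414 ± 114 CPM in GH_WT and 261 ± 53.0 CPM in GH_Con. GH_WT 4 was the lowest GH_WT library for all 3 and overlapped with GH_Con. Egr3 had the smallest difference, at 205 ± 69.6 CPM in GH_WT and 185 ± 20.5 CPM in GH_Con. Fos, Junb, Egr1, Egr2, Nr4a1 and Nr4a3 (6 of 10) were higher at an unadjusted p under 0.05, against 1.78% of all genes, and 0 were lower, against 1.64%. Fos, Egr2 and Nr4a3 were higher with no overlap, against 2.2% of all genes, and 0 members were lower with no overlap, against 2.02%. edgeR called 0 members, against 0.0% of all genes, and DESeq2 called 0 members. The 8 thalamus and habenula genes were all higher in GH_WT (sums of 29.8 to 339 CPM in GH_WT and 26.3 to 37.1 CPM in GH_Con), through GH_WT 2 and GH_WT 4. The 6 choroid plexus genes were all higher too (4.80 to 359 CPM in GH_WT and 9.73 to 66.3 CPM in GH_Con, median log2 fold change 1.33). In GH_WT 8 of 8 striatal genes (277 to 1262 CPM in GH_WT and 929.6 to 1122 CPM in GH_Con, median −0.74), 5 of 5 blood genes (12.5 to 52.7 CPM in GH_WT and 3.86 to 188 CPM in GH_Con, median −1.30) and 8 of 8 oligodendrocyte genes (3749 to 5105 CPM in GH_WT and 4152 to 5596 CPM in GH_Con, median −0.13) were lower. The part of these markers in the members' values was not tested. Without GH_WT 2, GH_WT 4 and SI_EE 1, the log2 fold change was 1.53 for Egr2, 1.29 for Nr4a3, 1.21 for Fos and 0.82 for Egr1, and the members' median was 0.81. Without GH_Con 1 the median was 0.58, and without the 4 libraries of lower long transcripts it was 0.88.

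In isolated mice, SI_WT against SI_Con also gave 10 of 10 log2 fold changes above 0 (48.9% of all genes), with a median of 0.33. Egr2 was at 7.81, 14.3, 7.25 and 6.37 CPM in SI_WT, and at 3.13, 4.17, 4.03 and 7.59 CPM in SI_Con. The groups overlapped, and its log2 fold change of 0.91 (SE 0.39, unadjusted p = 0.0298, adjusted p = 1.0 in edgeR) was the 1 of 10 that was higher at an unadjusted p under 0.05, against 1.4% of all genes. On the lower side there were 0 members, against 2.44%, and 0 members lacked overlap, against 0.796% of all genes higher and 1.31% lower. edgeR called 0 members, against 0.0% of all genes, as did DESeq2. Fos averaged 26.7 ± 10.04 CPM in SI_WT and 23.2 ± 7.72 CPM in SI_Con, and Nr4a3 26.5 ± 15.3 CPM in SI_WT and 25.7 ± 8.62 CPM in SI_Con. Markers that moved in this comparison were 8 of 8 meningeal genes (248 to 441 CPM in SI_WT and 386 to 1076 CPM in SI_Con, median −1.24) and 6 of 6 choroid plexus genes (5.23 to 12.4 CPM in SI_WT and 21 to 1084 CPM in SI_Con, median −3.71), all lower in SI_WT. The 8 microglial genes were all higher (263 to 494 CPM in SI_WT and 243 to 359 CPM in SI_Con, median 0.33), and the 8 thalamus and habenula genes all lower (25.3 to 30.4 CPM in SI_WT and 26.6 to 67.3 CPM in SI_Con, median −0.87). Their part in the members' values was not tested. The interaction of the WT arm with housing was −1.04 for Fos and −1.37 for Nr4a3 on the log2 scale, the 2 members lower at an unadjusted p under 0.05, against 2.66% of all genes (0 higher, against 1.86%), and neither passed after adjustment (adjusted p = 1.0 in edgeR; edgeR and DESeq2 called 0 members, against 0.0% of all genes in edgeR). Without SI_EE 1, GH_WT 2 and GH_WT 4 these interactions were −1.0 (SE 0.52) and −1.24 (SE 0.67).

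Social isolation gave small differences averaged over the 3 arms, and how many members lay above 0 depended on the libraries. With all of them, 6 of 10 genes had a log2 fold change above 0 in SI against GH (50.8% of all genes), with a median of 0.05. It was 8 of 10 without SI_EE 1 (median 0.13), without SI_EE 1, GH_WT 2 and GH_WT 4 (median 0.11) and without the 4 libraries of lower long transcripts (median 0.13). Without GH_Con 1 it was 6 of 10 (median 0.02), and with Xist as a covariate 5 of 10 (median −0.01). The values ran from −0.26 for Egr2 (95% interval −0.73 to 0.20) to 0.21 for Npas4 (95% interval −0.28 to 0.70). Egr1 averaged 377 ± 109 CPM in SI and 353 ± 98.6 CPM in GH, and Fos 26.3 ± 7.44 CPM in SI and 29.3 ± 13.1 CPM in GH (SD, n = 12 each). At an unadjusted p under 0.05, 0 members were higher, against 4.86% of all genes, and 0 were lower, against 3.75%. edgeR called 0 members, against 0.0% of all genes, and DESeq2 called 0. In SI the 8 oligodendrocyte, 8 microglial and 5 blood genes were all lower (medians −0.12, −0.21 and −1.50) and the 8 cerebellar genes all higher (median 1.63), and their part in the members' values was not tested.

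The counts differed between the arms. In SI_Con against GH_Con, 9 of 10 genes lay above 0 (50.1% of all genes) with a median of 0.32, and Nr4a3 was the largest at 0.84 (SE 0.41, adjusted p = 0.764 in edgeR). Its libraries were at 25.8, 15.1, 25.6 and 36.2 CPM in SI_Con, and at 15.7, 6.65, 11.6 and 23.4 CPM in GH_Con. Without the 4 libraries of lower long transcripts the median was 0.50. In SI_Con 8 of 8 oligodendrocyte genes (3509 to 3876 CPM in SI_Con and 4152 to 5596 CPM in GH_Con, median −0.35), 8 of 8 microglial genes (243 to 359 CPM in SI_Con and 301 to 518 CPM in GH_Con, median −0.40), 5 of 5 blood genes (2.41 to 10.5 CPM in SI_Con and 3.86 to 188 CPM in GH_Con, median −3.31) and 8 of 8 striatal genes (median −0.46) were lower, while 6 of 6 choroid plexus genes were higher (21 to 1084 CPM in SI_Con and 9.73 to 66.3 CPM in GH_Con, median 1.72). The part of these was not tested. In SI_EE against GH_EE, 2 of 10 lay above 0 (52.9% of all genes) with a median of −0.11, and 5 of 10 without SI_EE 1, with a median of 0.08. Npas4 was highest there, at 21.7 ± 10.5 CPM in SI_EE and 12.4 ± 3.17 CPM in GH_EE (log2 fold change 0.80, SE 0.41; 1.08 without SI_EE 1, SE 0.40). In SI_EE, 12 of 12 pyramidal, 8 of 8 microglial and 8 of 8 striatal genes were lower (medians −0.39, −0.28 and −0.42). Higher were 8 of 8 cerebellar, 8 of 8 thalamus and habenula and 8 of 8 meningeal genes (medians 6.15, 1.45 and 0.59). So were 6 of 6 choroid plexus and 5 of 5 blood genes (medians 1.98 and 1.61), and the part of these was not tested. In SI_WT against GH_WT, 3 of 10 lay above 0 (49.5% of all genes) with a median of −0.06, and the lowest was Fos at −0.56 (SE 0.32). The direction turned without the 4 libraries of lower long transcripts, among them SI_WT 4, where 6 of 10 lay above 0 with a median of 0.06. In SI_WT, 8 of 8 thalamus and habenula, 8 of 8 meningeal and 6 of 6 choroid plexus genes were lower (medians −3.22, −1.46 and −2.90). Also lower were 5 of 5 blood and 8 of 8 oligodendrocyte genes (medians −2.92 and −0.12), while 8 of 8 striatal genes were higher (median 0.55). Their part in the members' values was not tested. In each of these 3 comparisons edgeR and DESeq2 called 0 members, and 0 members had an unadjusted p under 0.05 or groups without overlap. Of all genes, edgeR called 0.0% in SI_Con against GH_Con, where 2.97% were higher and 3.57% lower at an unadjusted p under 0.05, and 1.96% higher and 2.61% lower without overlap. In SI_EE against GH_EE it called 0.00491%, with 6.36% higher and 2.34% lower at that p, and 2.35% higher and 2.01% lower without overlap. In SI_WT against GH_WT it called 0.0%, with 1.76% higher and 3.61% lower at that p, and 1.36% higher and 2.24% lower without overlap.

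**Figure D2:**
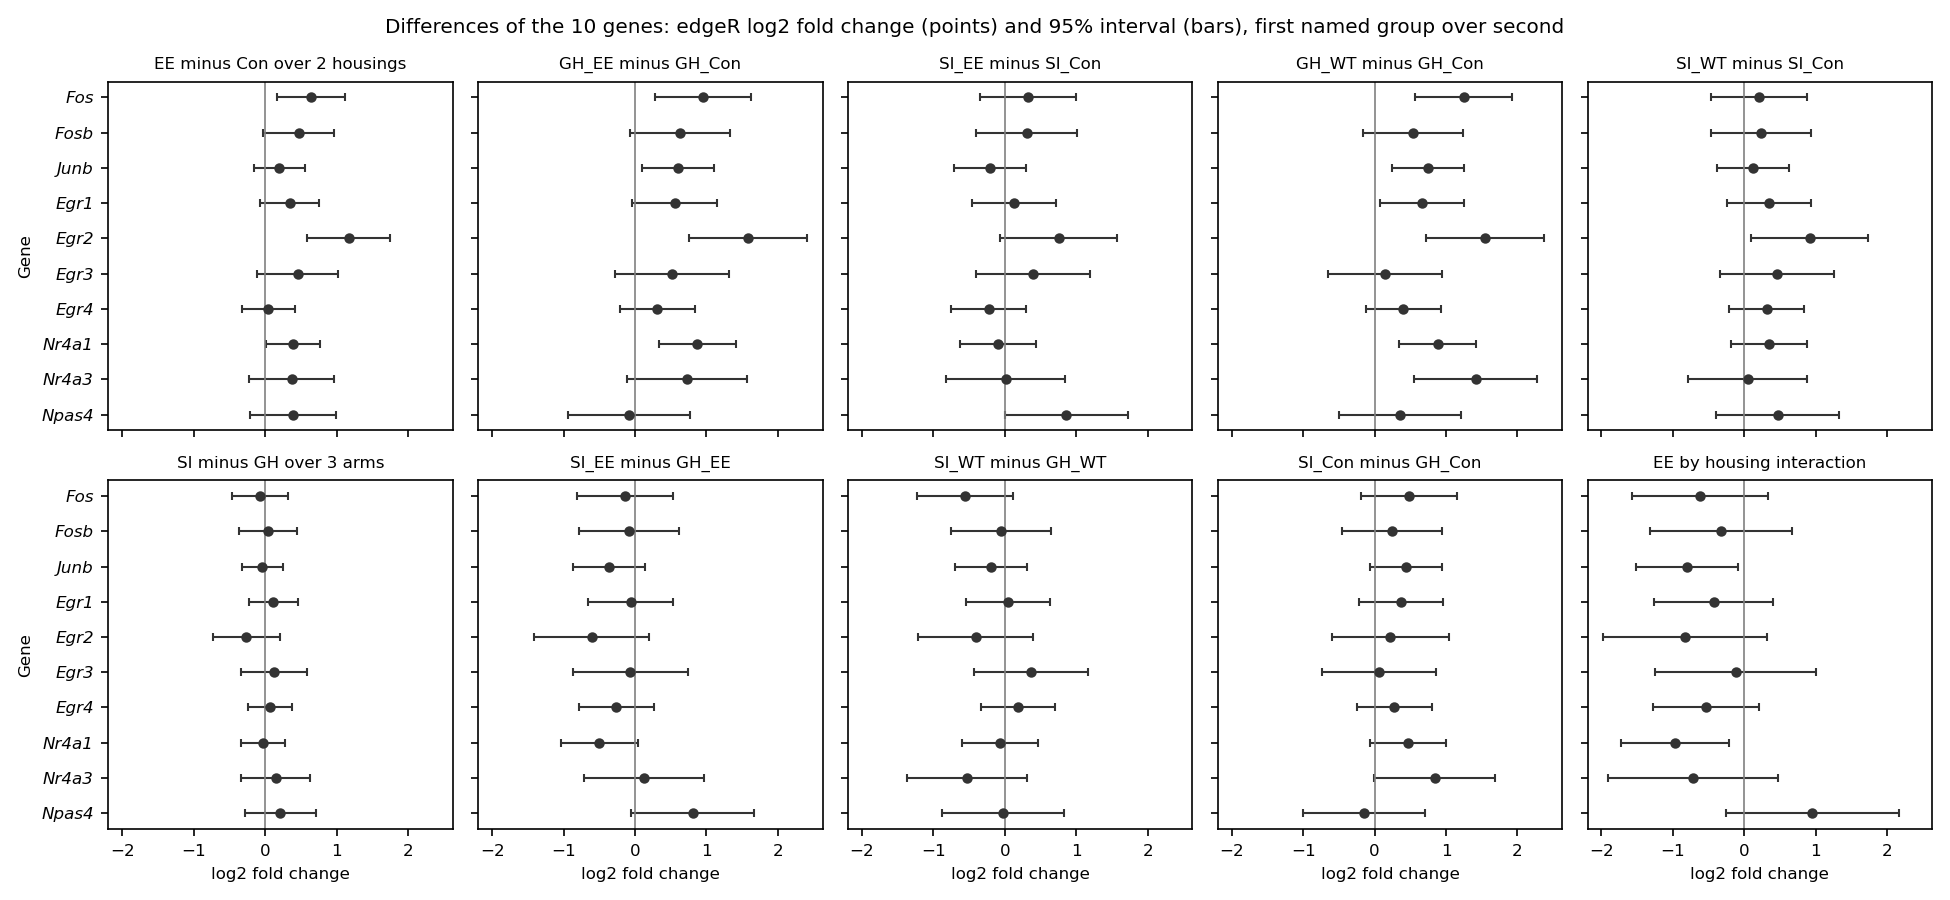
Log2 fold change of each gene (points) with its 95% interval (bars) in 10 comparisons, from 1 edgeR fit over 24 libraries; each panel's title gives the first group over the second, and the last panel is the SI difference minus the GH difference. Egr2 lies farthest from 0 with EE (1.17 over both housings) and the SI against GH panel is centred near 0 (median 0.05).

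The members varied together between libraries of the same group. Deviations of log2 CPM from the group mean were correlated for all 45 pairs over 24 libraries, with 100000 permutations within groups, and p-values were adjusted by Benjamini-Hochberg over the 45 pairs. The correlation was positive for 44 pairs, with a median Pearson's r of 0.57, and 26 pairs passed an adjusted p of 0.05. These correlations are between genes of the same libraries and share each library's depth, dissection and RNA quality. Fos and Nr4a1 had r = 0.88 and Spearman's rho = 0.90 (permutation p = 2e-05 for each, adjusted p = 0.00018 and 0.00045), and r = 0.89 without GH_Con 1 and GH_Con 2, the 2 libraries farthest from the median of Fos. Fosb and Egr1 had r = 0.90 and rho = 0.87 (permutation p = 1e-05 for each, the smallest that these permutations can give, adjusted p = 0.00018 and 0.00045), and r = 0.88 without SI_EE 1 and SI_WT 4. Egr1 and Egr3 had r = 0.90 and rho = 0.76 (permutation p = 0.00013 and 0.00047, adjusted p = 0.00073 and 0.00192), and r = 0.77 without SI_EE 1 and SI_EE 2.

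Other pairs depended on which libraries were kept. Fos and Egr3 did not pass (r = 0.21 and rho = 0.33, permutation p = 0.171 and 0.0967, adjusted p = 0.192 and 0.122), and r was 0.26 without GH_Con 1 and GH_Con 2. Without SI_EE 1, where Fos lay within its group's range and Egr1 and Egr3 were lowest, r of Fos was 0.41 to Egr3, 0.79 to Egr1 and 0.65 to Fosb, against 0.47 to each of Egr1 and Fosb with all libraries. Without the 4 libraries of lower long transcripts, Fos and Egr3 passed by rho (r = 0.27 and rho = 0.59, permutation p = 0.0930 and 0.0066, adjusted p = 0.105 and 0.0119). Egr2 had r = 0.84 to Nr4a1 and 0.76 to Fosb. Nr4a3 passed in 0 of its 9 pairs by Pearson's r, with r = 0.45 and rho = 0.49 to Nr4a1 (permutation p = 0.0427 and 0.0260, adjusted p = 0.0631 and 0.0468), and r = 0.33 without GH_WT 4 and SI_WT 2. This rested on the libraries too: without the 4 of lower long transcripts, Nr4a3 passed with Nr4a1 (r = 0.62, adjusted p = 0.0122), Fos (r = 0.64, adjusted p = 0.0163), Egr4, Egr1 and Junb in the same permutation test. Its r to Fos was 0.34 with all libraries and 0.69 without GH_Con 1 and GH_Con 2. Npas4 passed in 1 of its 9 pairs, with Egr1 (r = 0.64 and rho = 0.43, permutation p = 0.0217 and 0.0791, adjusted p = 0.0390 and 0.105), and r was 0.42 without SI_EE 1 and SI_EE 2, so that this relation rests on those libraries. Without SI_EE 1, 20 pairs passed, and without the 4 libraries of lower long transcripts 33 did.

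**Figure D3:**
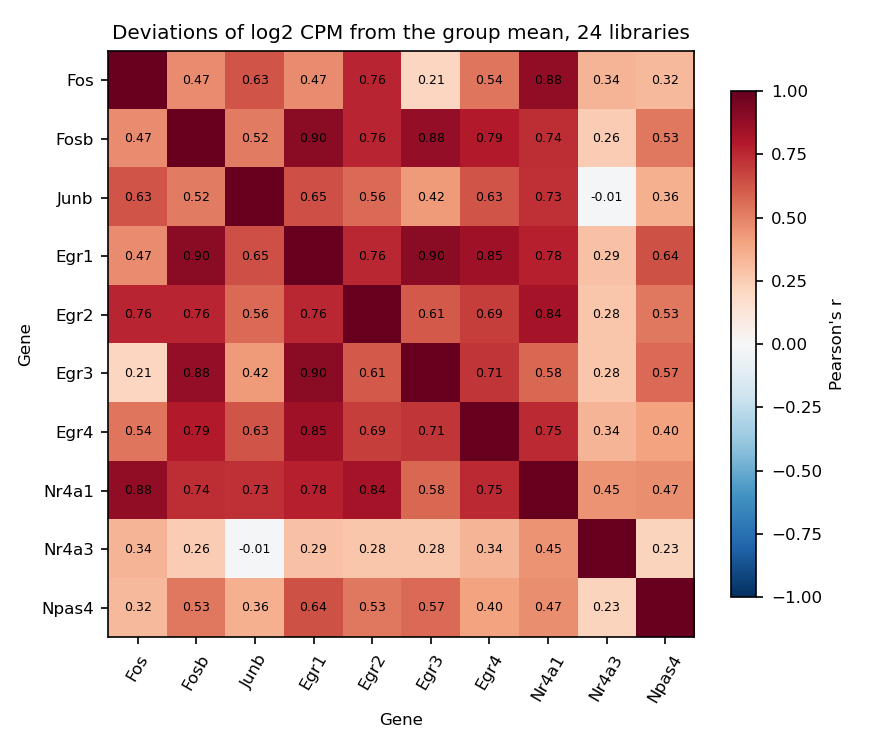
Pearson's r between the 10 genes (both axes) for deviations of log2 CPM from the group mean over 24 libraries; the colour runs from −1 to 1 and each cell prints its r. Nr4a3 is the pale row and column, with r of at most 0.45, while Fosb and Egr1 reach 0.90.

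The same pattern can be followed library by library in z-scores of log2 CPM, averaged over the 10 genes. The SI_EE libraries ran from −1.74 (SI_EE 1) to 0.74, GH_EE from 0.01 to 0.80, SI_WT from −0.10 to 1.16 and GH_WT from −0.48 to 1.17. SI_Con ran from −0.70 to 0.35 and GH_Con from −1.64 to −0.17. All 4 GH_Con libraries lay below 0 and all 4 GH_EE libraries above it. GH_Con 3 was at −1.26 and the other 2 GH_Con libraries at −0.46 and −0.17, so that GH_Con itself spread over much of the scale.

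**Figure D4:**
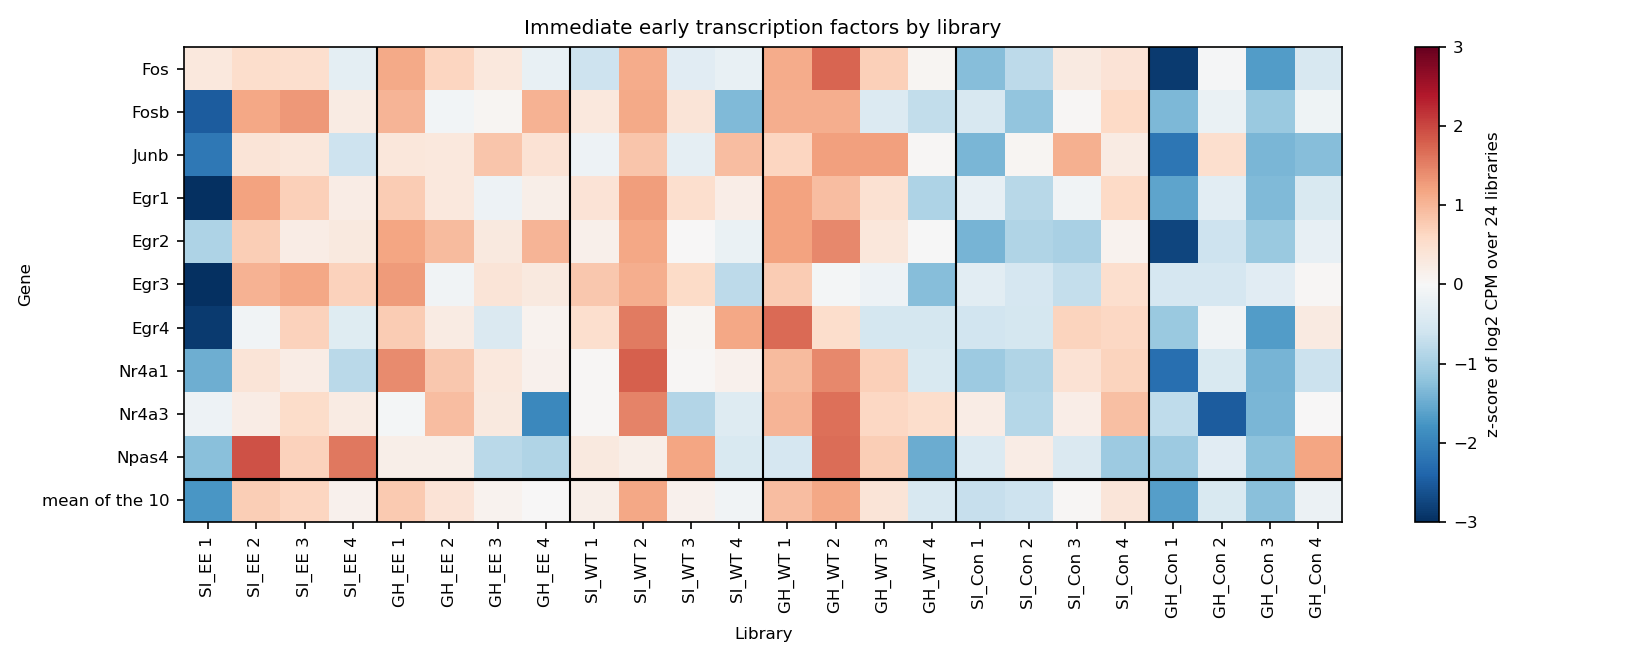
Z-score of log2 CPM over the 24 libraries for the 10 genes (rows) and their mean (bottom row), with libraries ordered by group; red is above and blue below the gene's mean. SI_EE 1 (mean −1.74) and GH_Con 1 (mean −1.64) are the bluest columns, and SI_EE 1 is pale for Nr4a3 (−0.16) and Fos (0.32).

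The genes outside the list whose log2 CPM most resembled this mean z-score over the 24 libraries were looked up among 13597 genes with a mean of at least 1 CPM, as a description. Arc, an immediate early gene whose protein acts at synapses, was first with r = 0.94 (85.0 to 519 CPM). It was followed by Midn (0.88), the receptor gene Gpr3 (0.87), the ERK phosphatase gene Dusp6 (0.85) and the AP-1 subunit gene Fosl2 (0.85). Nmt2 (0.79), the chaperone gene Dnajb5 (0.78), Trib1 (0.78), the chaperone gene Dnaja1 (0.78) and Npr3 (0.77) completed the 10. Without SI_EE 1, 6 of these 10 were still among the top 10, and Arc (0.93) and Midn (0.89) were still first and second.

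Around the members, genes that act upstream of them differed little from GH_Con in GH_EE and GH_WT. Of 18 upstream regulators (among them Creb1, Srf, Mef2d and kinases of the calcium and ERK pathways), 12 had a log2 fold change above 0 in GH_EE against GH_Con, with a median of 0.05, and 11 in GH_WT against GH_Con, with a median of 0.02. More of them were below 0 with isolation: 15 of 18 in SI_EE against GH_EE (median −0.18) and 14 of 18 in SI against GH (median −0.10). Srf averaged 32.9 ± 1.83 CPM in GH_EE and 28.1 ± 2.99 CPM in GH_Con. Of 12 partners and corepressors, 5 were above 0 in GH_EE, with a median of −0.01, and 3 in GH_WT, with a median of −0.04. Jund, a Jun partner of the Fos proteins, averaged 78.4 ± 8.06 CPM in GH_EE and 101 ± 17.2 CPM in GH_Con (log2 fold change −0.36, SE 0.16), opposite in sign to Junb. Nab2, a corepressor of Egr proteins, averaged 42.4 ± 7.23 CPM in GH_EE and 33.9 ± 3.10 CPM in GH_Con. edgeR called 0 genes of either list in each of these comparisons.

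Of 17 other inducible transcription factors, 13 were above 0 in GH_EE against GH_Con (median 0.29), and 12 in GH_WT against GH_Con (median 0.17). In SI_EE against SI_Con 9 of 17 were above 0 (median 0.03), and in SI_Con against GH_Con 13 of 17 (median 0.09). Bhlhe40 averaged 166 ± 16.4 CPM in GH_EE, 163 ± 17.9 CPM in GH_WT and 109 ± 14.3 CPM in GH_Con. Nr4a2, the third member of the Nr4a family, differed in the other direction from Nr4a1 and Nr4a3: it averaged 25.4 ± 6.23 CPM in the 8 EE libraries and 43.0 ± 16.7 CPM in the 8 Con libraries (log2 fold change −0.76, SE 0.26, adjusted p = 0.314 in edgeR). Its log2 fold change was −0.76 (SE 0.36) in isolated mice and −0.75 (SE 0.36) in GH mice, against −0.10 and 0.87 for Nr4a1. edgeR called 0 of these 17 genes in each comparison.

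Of 28 activity-regulated effectors, genes induced by the same signals, 26 were above 0 in GH_EE against GH_Con (median 0.33), and 19 in GH_WT against GH_Con (median 0.21). Their CPM summed to 1895 to 2422 in GH_EE and 1499 to 2209 in GH_WT, against 1255 to 1563 in GH_Con, so that GH_EE did not overlap with GH_Con. In isolated mice, 15 of 28 were above 0 in SI_EE against SI_Con (median 0.04). Their sums overlapped, at 973 to 2199 CPM in SI_EE and 1381 to 2286 CPM in SI_Con. In SI_Con against GH_Con, 22 of 28 were above 0 (median 0.22), and the EE interaction was below 0 for 20 of 28 (median −0.41). Arc averaged 342 ± 106 CPM in GH_WT and 129 ± 35.8 CPM in GH_Con (log2 fold change 1.41, SE 0.41). Per1, a clock gene with a CREB-responsive promoter, averaged 92.5 ± 10.7 CPM in GH_EE, 111 ± 5.98 CPM in GH_WT and 63.9 ± 3.60 CPM in GH_Con. Sik1, a kinase gene induced by cAMP, averaged 20.4 ± 2.44 CPM in GH_EE and 11.4 ± 2.50 CPM in GH_Con. The 8 heat shock genes were also all above 0 in GH_EE against GH_Con (median 0.38), led by Hspa1a at 20.2 ± 8.32 CPM in GH_EE and 12.5 ± 1.98 CPM in GH_Con, and 5 of 8 were in GH_WT (median 0.14). In SI_EE against SI_Con 7 of 8 were above 0 (median 0.14), and in SI_Con against GH_Con 6 of 8 (median 0.20). Reads of Hspa1a and its near-identical copy Hspa1b could have been split by the counting. edgeR called 0 genes of either list, and whether the heat shock values had a part in the members' differences was not tested.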

How the data were processed

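Whole-number read counts per gene were deposited by the authors with no normalisation, as judged from the values (library totals differ and all values are whole). The build is mm10 per the submitters' processing notes; the sources used here do not give the aligner, counting tool, annotation or use of strand. Of 56750 entries, 52073 (91.8%) are paired with a symbol, and each of the 24 columns matches 1 sample. The 10 genes and all gene lists were chosen with earlier results of these data known.

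The test was edgeR's quasi-likelihood test (version 4.0.16 in R 4.3.3) after TMM scaling and filterByExpr, with robust dispersion and without covariates. The 24 libraries entered 1 fit and so shared 1 estimate of spread; 20354 genes passed the filter, all 10 members among them. The threshold was a Benjamini-Hochberg adjusted p of 0.05 over all genes, in 11 comparisons, and about 1018 genes would have an unadjusted p under 0.05 by chance. The script was tested on simulated data. No overlap means that every library of one group lay above every library of the other. Log2 CPM used a prior count of 2. Correlations of member pairs used 100000 two-sided permutations within groups. From each list, up to 4 genes could be named, those of smallest p; the most alike genes were the 10 with the highest Pearson's r to the members' mean z-score and no Gm or Rik symbol. Alternatives were DESeq2 1.42.0, its size factors in edgeR, no filter, the replicate number as a block, and leaving out libraries. Promoter windows and their sequences are from RefSeq (GRCm38.p6), and sequence inside an annotated exon is not shown.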

Additional observations from a re-analysis of the deposited data

Results flagged for a closer look

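Nr4a1 in SI_WT 2 stood apart from the rest of its group, at 173 CPM, with the nearest SI_WT library at 99.7 CPM. It was the 1 set of 60 (10 genes in 6 groups) in which the gap of an extreme library to its neighbour, divided by the range of the group, exceeded Dixon's 95% critical value, and chance flags about 5% of sets. SI_WT 2 was also the highest library for Egr1.

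For Nr4a1 the difference of SI against GH had opposite signs in EE mice and in mice with no other treatment. The log2 fold change was −0.50 (SE 0.26) in SI_EE against GH_EE and 0.47 (SE 0.26) in SI_Con against GH_Con. The groups overlapped in each: SI_EE 2 (109 CPM) lay above GH_EE 4 (99.7 CPM), and GH_Con 2 (82.6 CPM) lay above SI_Con 1 (66.8 CPM). The interaction was −0.97 on the log2 scale (SE 0.36, unadjusted p = 0.0144) and did not pass after adjustment in edgeR (adjusted p = 0.546).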

How the results depend on the processing

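edgeR called 0 members in all 194 of its alternative fits by comparison, so that there were no called values of members whose sign could change. Of 2050 alternative log2 fold changes of members, 96 changed sign, all with a size of at most 0.35 in the reported fit. DESeq2 called 1 member, Egr2, in GH_EE against GH_Con and 1, again Egr2, in EE over both housings. Over all genes, DESeq2 called 33 in SI_Con against GH_Con, 22 in SI_EE against GH_EE, 12 in SI_WT against GH_WT, 26 in GH_EE against GH_Con, 147 in SI_EE against SI_Con, 10 in GH_WT against GH_Con, 2 in SI_WT against SI_Con, 8 in SI against GH, 107 in EE over both housings and 29 in the EE interaction, where edgeR called 0 or 1; the cause was not tested. Without the 4 libraries with lower long genes, 0 genes were called in SI_EE against GH_EE and in GH_EE against GH_Con, and 1 each in SI_EE against SI_Con and SI_WT against SI_Con. Without SI_EE 1, GH_WT 2 and GH_WT 4, an alternative chosen after seeing the data, 2 genes were called in SI_Con against GH_Con, 0 in SI_EE against GH_EE and 1 in SI_EE against SI_Con. Whether Xist was read, added as a covariate after seeing the data, left edgeR with 0 members called.

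With single libraries left out, 0 to 91 genes were called in SI_EE against SI_Con (91 without SI_EE 2), 1 to 3 in SI_EE against GH_EE, and 0 to 1 in SI_Con against GH_Con, SI_WT against GH_WT, SI_WT against SI_Con, SI against GH, EE over both housings and the EE interaction. Same-numbered libraries did not deviate together (60 pairs, median r −0.01, range −0.28 to 0.18, against a median of −0.0005 for other numbers). This cannot show whether the numbers mark a shared litter, day or mouse, which the labels do not say. With the replicate block, edgeR called 1 gene in GH_EE against GH_Con and 0 members in each comparison. Of the 45 member pairs, 34 passed with log2 CPM as they are. Intervals of the single groups are wide at n = 4, and a member that did not pass is not shown to be equal.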
